A study of Mus musculus with 11 samples.

Results

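The replication-dependent histone genes supply the core of the nucleosome and its linker, and their probes were followed here in sorted basal progenitors of the mouse cortex. Members were the probes whose gene symbol on the array platform names an H1, H2A, H2B, H3 or H4 gene of the numbered histone families. They came to 89 of 45281 probes and stood for 59 of the 19057 genes that probes with 1 symbol name, with 11 H1 probes, 23 H2A probes, 18 H2B probes, 18 H3 probes and 19 H4 probes. The rule uses no measured value. Basal progenitors, the dividing cells of the cortical wall that lie away from the ventricle and produce neurons, were isolated by flow cytometry from embryonic cortex at embryonic day 13 (E13, 6 arrays) and embryonic day 16 (E16, 5 arrays). All 11 arrays carry WT in their column label, read here as wild type, and no treatment or altered allele is given. Each array is 1 embryo, 3 litters gave the embryos of a stage, and neither the litter of each embryo nor the sorting marker is given in the sources used here.

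DNA in the nucleus winds around an octamer of histones H2A, H2B, H3 and H4, and the linker histone H1 binds where the DNA enters and leaves. Replication-dependent histone genes are transcribed in S phase, when each new DNA strand has to be packed, and cycling progenitors of the cortex rely on them in every division. Their mRNAs usually end in a stem-loop instead of a poly(A) tail, and stem-loop binding protein (Slbp) acts in their processing and translation. The labelling kit named in the labels primes on poly(A), so the arrays may read mainly the histone transcripts that carry a tail; how far this set the levels was not tested. Members of a class have very similar coding sequences, and a probe may read more than 1 of them. The probe sequences were not used here, so the calls of single genes are uncertain where copies are near-identical.

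Of the 89 probes, 67 were detected well enough to be tested (detection p under 0.05 on at least 5 of the 11 arrays), and they stood for 46 genes. Another 15 probes were detected on 0 of 11 arrays and 7 on some arrays. Among the 15 were the probes of genes known from germ cells: H1f6 of the testis, H1f8 of the oocyte, and H2ac1 and H2bc1 of the testis. Also on 0 arrays were the probes of H1f1, H1f3, H1f4, H2ac6 and H2bc8 and single probes of H2bc4, H3c4, H3c8 and H4c2, with 2 probes of H3c7. The 7 others were H1f7 (1 E13 array), H2bc18 (2 E13 and 2 E16 arrays), 1 probe of H2bc6 (3 E13 arrays), H3c8 (2 E13 arrays and 1 E16 array), 1 probe of H3c14 (1 E13 array), H4c14 (1 E13 array) and 1 probe of H4c2 (2 E13 arrays).

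Histone mRNA was lower at E16 for most probes of the H2A, H2B, H3 and H4 classes. Of the 67 tested probes, 54 were lower at E16 and 0 were higher (limma, adjusted p under 0.05), which is 80.6% lower, whereas 11.9% of all 20599 tested probes were lower and 10.7% were higher. The unadjusted p was under 0.05 for 56 probes that were lower and for 0 that were higher. Centring each array on its median gave 13.02% lower and 7.57% higher over all probes. All 11 arrays detected 55 of the 67 probes, of which 45 were lower, against 11.9% of all probes detected on every array; of the remaining 12, 11 were detected on at least 5 E13 arrays and could have passed the detection step through E13 alone. For 41 of the 67 every E16 array lay below every E13 array (7.35% of all tested probes), the opposite held for 0 (6.77% of all tested probes), and the decrease was 2-fold or more for 20 (2.37% of all tested probes). The median difference over the 67 was -0.70 on the log2 scale, where all tested probes had a median of -0.004. In sorted cells measured in bulk, fewer cycling cells, another mix of sorted cells and less histone mRNA per cell cannot be told apart. Whether the share of histone mRNA with a poly(A) tail differed between the stages was not tested.

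**Figure D1:**
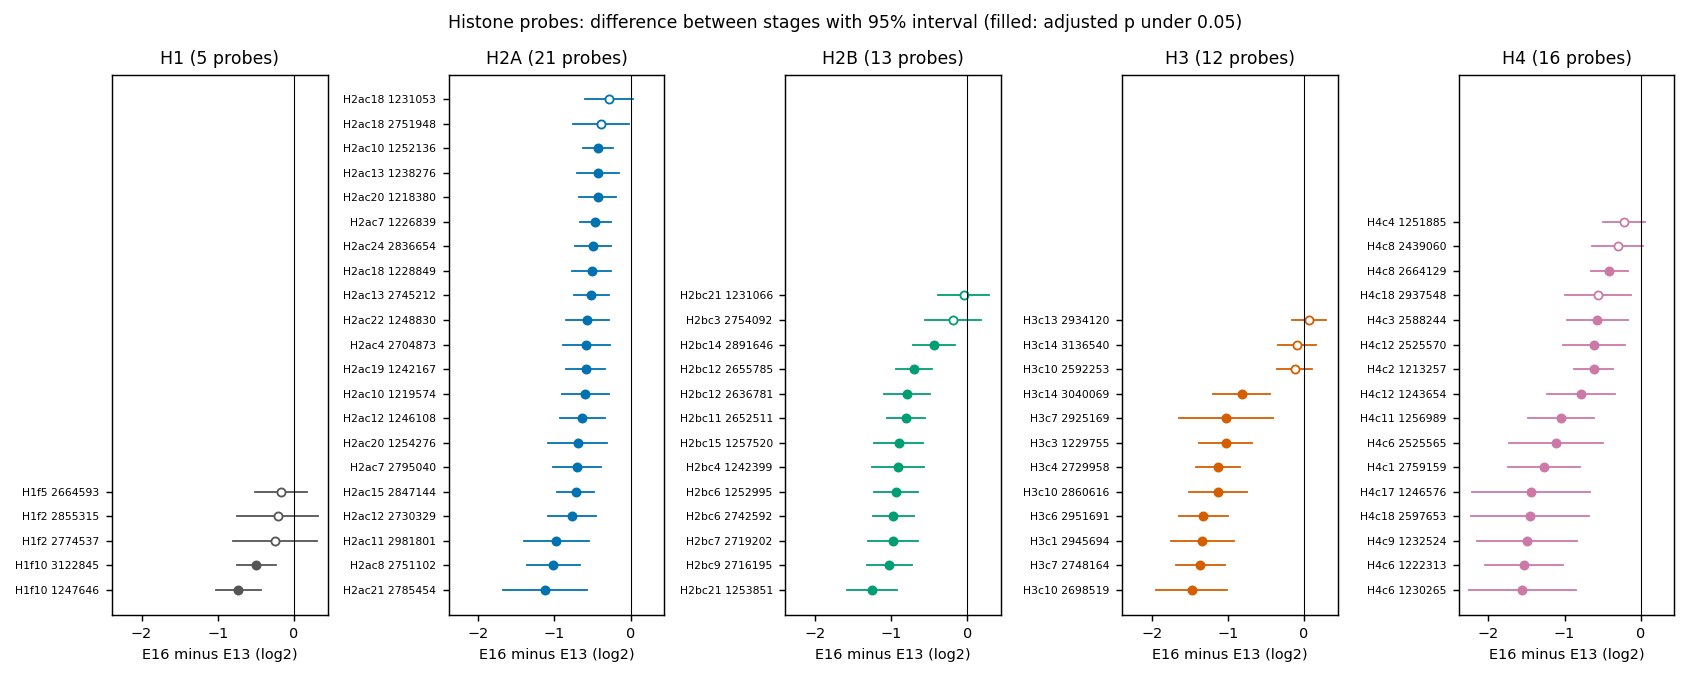
Difference between the stages (E16 minus E13, log2, horizontal axis) of each of the 67 tested histone probes, grouped by class, with its 95% interval; filled points passed the test. Labels give the gene and the number of its Illumina probe. H2A probes sit mostly between -0.4 and -0.8, the H3 probes split into 9 at or below -0.82 and 3 near 0, and the H4 probes spread from -0.22 to -1.56.

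By class, the count of lower probes was 2 of 5 for H1, 19 of 21 for H2A, 11 of 13 for H2B, 9 of 12 for H3 and 13 of 16 for H4. Both lower H1 probes were of H1f10, which is expressed outside S phase as well, and no H1f2 or H1f5 probe passed. Median differences were -0.25 for H1, -0.58 for H2A, -0.90 for H2B, -1.08 for H3 and -0.91 for H4. The H1 median was -0.15 without E13 replicate 1, -0.13 without E16 replicate 2, -0.39 without E16 replicate 3 and -0.11 with no detection filter. Counted by gene, all tested probes were lower for 35 of 46 genes, the probes of 6 genes were mixed, and none was lower for 5. The 5 were H1f2, H1f5, H2bc3, H3c13 and H4c4. No test was made between classes, since probes of a class share sequence and arrays.

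Upstream sequences are given for H2A, H2B and H3 members that were lower with at least 1 probe (H2ac21, H2bc12, H3c4 and H3c10) and for H1f2 and H3c13, which did not pass. RefSeq windows of GRCm38.p6, from 250 bases before the annotated start to 50 after it, were found for 54 of the 59 member genes. Letters CCAAT, on either strand, stood in 44 of the 54 windows (81.5%) and in 37.4% of all 32851 windows. They were in all 16 H2A, all 11 H2B and all 7 H3 windows, in 7 of 9 H1 windows and in 3 of 11 H4 windows. TATAAA, on either strand, was found between 20 and 45 bases before the start in 14 of 54 windows (25.9%), against 2.75% of all windows. The octamer ATTTGCAT, known from H2B promoters, was also counted on either strand. It stood in 6 of 11 H2B and 6 of 16 H2A windows, against 1.74% of all windows. It stood in 0 of the H1, H3 and H4 windows. Several H2A and H2B genes are close neighbours whose windows can overlap, so the windows are not independent. Below are the 120 bases before the annotated start, 5′ to 3′, with matches to the 3 motifs on either strand in capitals; none of the 3 motifs overlaps another in the sequences printed.
H1f2 (chr13:23738687-23738806, plus strand): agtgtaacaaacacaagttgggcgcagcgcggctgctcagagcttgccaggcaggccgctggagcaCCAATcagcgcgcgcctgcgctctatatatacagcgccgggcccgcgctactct
H2ac21 (chr3:96219765-96219884, plus strand): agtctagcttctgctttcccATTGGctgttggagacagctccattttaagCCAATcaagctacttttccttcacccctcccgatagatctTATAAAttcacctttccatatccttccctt
H2bc12 (chr13:22035701-22035820, plus strand): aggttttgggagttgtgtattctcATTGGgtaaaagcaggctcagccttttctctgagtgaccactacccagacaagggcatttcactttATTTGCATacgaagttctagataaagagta
H3c4 (chr13:23575643-23575762, plus strand): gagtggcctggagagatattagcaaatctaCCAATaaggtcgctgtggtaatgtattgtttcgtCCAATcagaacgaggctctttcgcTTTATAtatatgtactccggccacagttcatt
H3c10 (chr13:21717508-21717627, plus strand): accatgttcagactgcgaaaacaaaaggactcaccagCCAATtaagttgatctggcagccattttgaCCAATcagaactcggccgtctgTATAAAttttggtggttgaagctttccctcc
H3c13 (chr3:96268534-96268653, plus strand): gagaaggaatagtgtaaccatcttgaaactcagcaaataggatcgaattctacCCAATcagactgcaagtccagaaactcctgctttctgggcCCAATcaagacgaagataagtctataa
TATAAA stood anywhere in 2 of 7 H3 windows, those of H3c4 and H3c10, which also hold CCAAT matches. Over all windows the share with TATAAA anywhere was 13.6%. The H3c4 match printed above is on the opposite strand and reads TTTATA. The H3c13 window holds CCAAT matches and no TATAAA. The same is true of the H3c3 and H3c6 windows, whose genes were lower (-1.03 and -1.32). The H2bc12 window holds the octamer. A match is a description of the letters and shows no binding.

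Linker histone H1 had the class median nearest 0. The tested probes were 2 of H1f2, 1 of H1f5 and 2 of H1f10. H1f10, a linker histone that is expressed outside S phase as well and is a member here by its symbol, was lower with both probes. Its probe ILMN_1247646 read between 10.50 and 11.11 at E13 with a median of 10.71, and 10.12, 9.88, 10.05, 10.42 and 9.73 on E16 replicates 1 to 5. All 5 E16 values lay below all E13 values, and the difference was -0.73 (limma adjusted p = 0.00177, SE 0.140). The other H1f10 probe, ILMN_3122845, differed by -0.49 (limma adjusted p = 0.00965, SE 0.122). Without H1f10, 52 of 65 histone probes were lower.

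H1f2, a somatic linker histone, varied between E16 arrays. With probe ILMN_2774537 it read between 9.35 and 10.47 at E13 with a median of 9.9995, and 9.15, 8.93, 10.26, 10.03 and 10.18 on E16 replicates 1 to 5. E16 replicates 1 and 2 lay below all E13 arrays, whereas E16 replicates 3 to 5 lay among the E13 values. The difference was -0.25 (limma adjusted p = 0.542, SE 0.259), with a 95% interval of -0.80 to 0.30. Its other probe, ILMN_2855315, gave 8.66 and 8.42 on E16 replicates 1 and 2 and between 9.63 and 9.88 on replicates 3 to 5, a difference of -0.21 (limma adjusted p = 0.591, SE 0.247). H1f5 was near the detection limit, with 4 E13 arrays and 2 E16 arrays detecting it, and differed by -0.17 (adjusted p = 0.513, limma). For these 3 probes the intervals include decreases of over 0.5 as well as 0.

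H2A, which pairs with H2B in the nucleosome, was lower for nearly every gene measured, by amounts that mostly stayed under 1 on the log2 scale. All 14 tested H2A probes of the chromosome 13 histone cluster were lower, as were 5 of 7 of the chromosome 3 cluster. H2ac21 of the chromosome 3 cluster had the largest decrease of the class and read between 10.14 and 11.68 at E13 with a median of 10.67, and 10.003, 9.58, 9.79, 10.04 and 8.997 on E16 replicates 1 to 5. Every E16 array lay below every E13 array, and it fell by 1.12 (limma adjusted p = 0.00588, SE 0.258). H2ac8 fell by 1.02 (limma adjusted p = 4.16e-04, SE 0.162) and 4 of 5 E16 arrays detected it. H2ac11 fell by 0.97 (adjusted p = 0.00262, limma).

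Several H2A probes lay near the top of the intensity range. H2ac24 read between 14.73 and 15.26 at E13 with a median of 14.86, and 14.59, 14.51, 14.59, 14.42 and 14.13 on E16 replicates 1 to 5. Stages did not overlap, and it fell by 0.49 (limma adjusted p = 0.00503, SE 0.110). Its raw intensity was 38128 on E13 replicate 3, the highest of any probe on that array, and between 15006 and 23440 on the E16 arrays. H2ac10 differed by -0.43 with probe ILMN_1252136 and by -0.59 with ILMN_1219574. Further members with probes at this end of the scale were H2ac7 (-0.46 with ILMN_1226839 and -0.70 with ILMN_2795040), H2ac13 (-0.51 with ILMN_2745212 and -0.43 with ILMN_1238276) and H2ac20 (-0.43 with ILMN_1218380). Of the 100 probes brightest at E13 on the whole array, 5 were H2A probes, none belonged to another histone class, 10 were lower at E16 and 3 higher. Whether signals at the top of the range understate the change was not tested.

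Other H2A genes fell by amounts in the same range. Differences were -0.72 for H2ac15, -0.63 and -0.77 for the probes of H2ac12, -0.59 for H2ac19, -0.58 for H2ac4, -0.57 for H2ac22 and -0.70 for the second H2ac20 probe. H2ac18 had 3 tested probes: ILMN_1228849, which 0 of 5 E16 arrays detected, was at least 1.28-fold lower at E16 (adjusted p = 0.00691, limma). The other H2ac18 probes, detected on all arrays, differed by -0.29 and -0.39 and did not pass (adjusted p = 0.193 and 0.122, limma). The H2ac13 probe ILMN_1238276 no longer passed without E13 replicate 2 (adjusted p = 0.0517, limma) or E13 replicate 3 (0.0535).

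H2B, the partner of H2A, was lower for 11 of 13 tested probes, with differences between -1.25 and -0.44. H2bc9 read between 8.41 and 9.02 at E13 with a median of 8.67, and 7.65, 7.41, 7.71, 7.87 and 7.75 on E16 replicates 1 to 5. Its lowest E13 array lay above the highest E16 array by over 0.5, and it fell by 1.02 (limma adjusted p = 9.56e-05, SE 0.137). H2bc6 averaged 9.50 ± 0.223 over the E13 arrays (SD, n = 6) against 8.53 ± 0.192 over the E16 arrays (SD, n = 5) with probe ILMN_2742592 and fell by 0.97 (limma adjusted p = 6.59e-05, SE 0.124); its second tested probe gave -0.94. H2bc7 (-0.97), H2bc4 (-0.91), H2bc15 (-0.90) and H2bc11 (-0.80) lay close to these values. H2bc12 differed by -0.70 and -0.79 with its 2 probes, both passing. H2bc14 fell by 0.44 (adjusted p = 0.0227, limma), and no longer passed without E13 replicate 1 (0.0510), E13 replicate 3 (0.0503) or E16 replicate 2 (0.0637). H2bc3, which 5 E13 arrays and 2 E16 arrays detected, differed by -0.18 (adjusted p = 0.490, limma).

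H2bc21, an H2B gene of the chromosome 3 cluster, gave different answers with its 2 probes. ILMN_1253851 read between 8.33 and 9.08 at E13 with a median of 8.59, and 7.67, 7.40, 7.28, 7.57 and 7.25 on E16 replicates 1 to 5. Stages were apart by over 0.6, and the probe fell by 1.25 (limma adjusted p = 4.03e-05, SE 0.151). ILMN_1231066 read between 8.21 and 8.89 at E13 with a median of 8.71, and 8.37, 8.57, 8.64, 8.23 and 8.92 on E16 replicates 1 to 5. The stages overlapped throughout, and the difference was -0.05 (limma adjusted p = 0.870, SE 0.156) with a 95% interval of -0.38 to 0.29. The probes differed from each other in their change by 1.20 (exact permutation test over 462 splits of the arrays, two-sided p = 0.00433, adjusted p = 0.0227 over 21 probe pairs).

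H3, which carries many of the modified residues of the nucleosome, held 8 probes that fell 2-fold or more and 3 probes with differences near 0. Those 3 were the brightest of the class, with E13 means of 12.54 (H3c13), 12.1 (H3c14) and 11.96 (H3c10). The next was H3c6 at 9.54. The class median counts each probe alike, whatever its brightness. H3c7 with probe ILMN_2748164 read between 8.56 and 9.25 at E13 with a median of 8.76, and 7.84, 7.59, 7.43, 7.51 and 7.12 on E16 replicates 1 to 5. All E16 values lay below 8 and all E13 values above 8.5, and it fell by 1.36 (limma adjusted p = 1.83e-05, SE 0.151). H3c6 fell by 1.32 (limma adjusted p = 2.13e-05, SE 0.149), and the differences of H3c1, H3c4 and H3c3, which passed, were -1.34, -1.13 and -1.03. H3c3 was detected by every E13 array but by 1 of 5 E16 arrays. The second H3c7 probe, which 3 of 5 E16 arrays detected, fell by 1.02 (adjusted p = 0.0203, limma) and did not pass without E16 replicate 4 (0.0501).

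A probe each of H3c10, H3c13 and H3c14 did not pass the test. For H3c10, ILMN_2592253 read between 11.79 and 12.17 at E13 with a median of 11.96, and 11.48, 11.76, 11.84, 12.07 and 12.05 on E16 replicates 1 to 5. These ranges overlap, and the difference was -0.12 (limma adjusted p = 0.467, SE 0.107) with a 95% interval of -0.35 to 0.11. ILMN_2698519 of the same gene read between 7.12 and 7.92 at E13 with a median of 7.57, and 6.63, 5.90, 6.10, 6.37 and 5.41 on E16 replicates 1 to 5. It fell by 1.47 (limma adjusted p = 2.18e-04, SE 0.218), and the third probe, ILMN_2860616, which 2 of 5 E16 arrays detected, differed by -1.13 (limma adjusted p = 3.63e-04, SE 0.178). The change of ILMN_2592253 differed from that of ILMN_2698519 by 1.35 (exact permutation test, two-sided p = 0.00216, the smallest that 462 splits can give, adjusted p = 0.0227) and from that of ILMN_2860616 by 1.01 (p = 0.00433, adjusted p = 0.0227, by the same exact test).

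H3c13, whose single probe is ILMN_2934120, read between 12.30 and 12.81 at E13 with a median of 12.53, and 12.34, 12.47, 12.76, 12.75 and 12.71 on E16 replicates 1 to 5. All 5 E16 values lay within the E13 range, and the difference was 0.07 (limma adjusted p = 0.697, SE 0.103) with a 95% interval of -0.15 to 0.29. Median centring gave -0.029. The H3c14 probe ILMN_3136540 differed by -0.09 (limma adjusted p = 0.637, SE 0.116) with a 95% interval of -0.34 to 0.16, while its other tested probe, ILMN_3040069, fell by 0.82 (limma adjusted p = 0.00377, SE 0.175). The change of those 2 probes differed by 0.73, which did not pass (exact permutation test, p = 0.0195, adjusted p = 0.0682). The intervals of these 3 probes that did not pass exclude a decrease of 0.4 on the log2 scale. Which transcripts each of these probes reads was not tested.

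**Figure D2:**
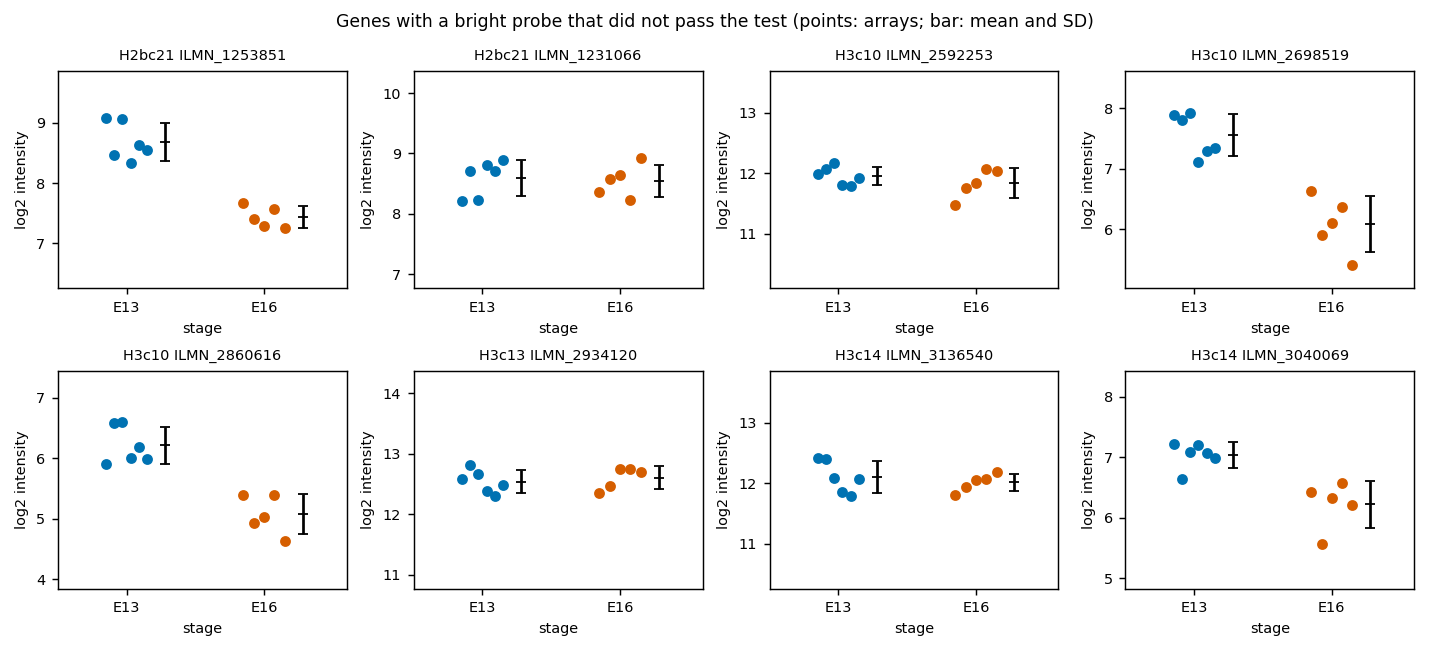
Normalised log2 intensity (vertical axis) of each array for the 8 tested probes of H2bc21, H3c10, H3c13 and H3c14, by stage; points are arrays and the bar gives mean and SD. All panels span the same number of log2 units. E13 and E16 arrays overlap for H2bc21 ILMN_1231066, H3c10 ILMN_2592253, H3c13 and H3c14 ILMN_3136540 and are apart for the other 4 probes.

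The test of probe against probe covered 21 pairs in 18 genes with several tested probes. Besides H2bc21 and H3c10, the pairs past the threshold were H2ac7, whose probes differed between stages by -0.46 and -0.70 (0.24 apart, exact permutation test, adjusted p = 0.0227), and H4c6, with a difference of -0.42 between ILMN_1222313 and ILMN_2525565 (adjusted p = 0.0455). The H2ac7 probe with the smaller change, ILMN_1226839, was the brighter, with an E13 mean of 14.58 against 13.53. Whether signal near the top of the range made this gap was not tested. Only 2 of 5 E16 arrays detected ILMN_2525565, so the H4c6 pair is not read as a difference in change. This test was added after the values were seen.

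H4, the partner of H3, was lower for 13 of 16 tested probes, and its class mean varied between the E13 arrays with an SD of 0.399, against 0.181 to 0.218 for the other classes. H4c6 with probe ILMN_1222313 read between 7.69 and 9.29 at E13 with a median of 8.56, and 7.24, 6.61, 7.10, 7.40 and 6.60 on E16 replicates 1 to 5. The highest E16 array lay below the lowest E13 array, which was replicate 6 at 7.69, and it fell by 1.53 (limma adjusted p = 3.43e-04, SE 0.239). Its other probes, ILMN_1230265 and ILMN_2525565, passed with -1.56 and -1.12, and 3 and 2 of 5 E16 arrays detected them. H4c9 read between 7.29 and 9.18 at E13 with a median of 8.59, and 7.29, 6.50, 7.12, 7.43 and 6.19 on E16 replicates 1 to 5. E13 replicate 6, at 7.29, lay at the level of E16 replicate 1 and below E16 replicate 4 at 7.43, and the gene fell by 1.49 (limma adjusted p = 0.00265, SE 0.305). H4c1 fell by 1.27 (limma adjusted p = 8.44e-04, SE 0.221) and H4c11 fell by 1.05 (adjusted p = 0.00168, limma), both without overlap of the stages.

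H4c17 and 1 probe of H4c18, neighbours on chromosome 13, moved nearly in step from array to array, and H4c9 and H4c6 showed a like pattern. Relative to the E13 mean of each probe, H4c17 stood at 0.85 on E13 replicate 3, at -1.35 on E13 replicate 6, at -2.24 on E16 replicate 2 and at -0.58 on E16 replicate 4. H4c18 with probe ILMN_2597653 stood at 0.96, -1.33, -2.13 and -0.54 on the same arrays. There H4c9 stood at 0.78, -1.10, -1.90 and -0.97, and H4c6 with ILMN_1230265 at 0.87, -1.12, -1.98 and -0.70. E13 replicate 6 was below the highest E16 array for H4c17 and for this H4c18 probe. H4c17 fell by 1.44 (limma adjusted p = 0.0104, SE 0.362) and H4c18 fell by 1.45 (limma adjusted p = 0.0101, SE 0.364). The second H4c18 probe, ILMN_2937548, stood at 0.13 on E13 replicate 6 and differed by -0.55 (limma adjusted p = 0.0633, SE 0.203), which passed without E13 replicate 5 (adjusted p = 0.0294) and with median centring (0.0349).

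H4c12, H4c8, H4c2, H4c3 and H4c4 showed smaller differences. H4c12 differed by -0.78 and -0.61 with its probes, and E13 replicate 6 was not the lowest E13 array for either. Probe ILMN_2525570 of H4c12 lost its call (adjusted p = 0.0327, limma) without E13 replicate 1 or 3 or E16 replicate 3, 4 or 5, with adjusted p between 0.0501 and 0.0820, and also with array weights (0.0772) or no detection filter (0.0609). H4c8 fell by 0.41 with the probe detected on all arrays and differed by -0.30 with the other (adjusted p = 0.182). H4c3, which 2 of 5 E16 arrays detected, fell by 0.57 (adjusted p = 0.0404, limma) and lost its call when E13 replicate 1, 2 or 3 or E16 replicate 1, 2, 4 or 5 was dropped, with adjusted p between 0.0504 and 0.0940, and also with array weights (0.124) or no detection filter (0.0757). H4c2, detected on 5 of 6 E13 arrays and 0 of 5 E16 arrays, was near the detection limit in both stages, so its size is a bound of at least 1.005-fold (adjusted p = 0.00200, limma). H4c4 differed by -0.22 (limma adjusted p = 0.248, SE 0.128).

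**Figure D3:**
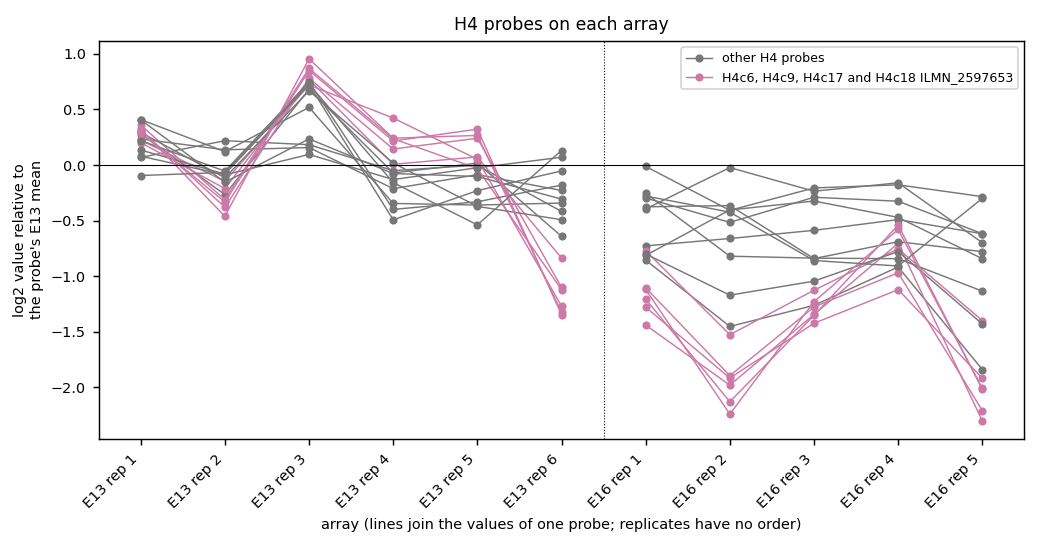
Log2 value of the 16 tested H4 probes relative to the E13 mean of each probe (vertical axis) on each array; lines join the values of 1 probe and replicates have no order. The 6 coloured probes, of H4c6, H4c9, H4c17 and H4c18, lie between -0.84 and -1.35 on E13 replicate 6, below every other H4 probe there.

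Averaged over the tested probes of a class, every class stood lower on each E16 array than its E13 mean. For H1 the genes differed. H1f10 ILMN_1247646 stood at -0.65, -0.89, -0.72, -0.34 and -1.04 on E16 replicates 1 to 5. On the same arrays H1f2 ILMN_2774537 stood at -0.81, -1.03, 0.30, 0.07 and 0.22, and H1f5 at 0.04, -0.32, -0.52, -0.23 and 0.21. Relative to the E13 mean, H2A stood at -0.41, -0.60, -0.61, -0.48 and -0.98 on E16 replicates 1 to 5, and between -0.22 and 0.30 on the E13 arrays. H2B stood between -0.97 and -0.63 at E16 and between -0.20 and 0.22 at E13. H3 stood between -1.11 and -0.72 at E16 and between -0.26 and 0.25 at E13. H4 ranged from -1.28 to -0.65 at E16 and from -0.59 to 0.61 at E13, with E13 replicate 3 highest and E13 replicate 6 lowest. For H2A, H2B, H3 and H4 the lowest E13 array was above the highest E16 array, and for H1 the ranges overlapped. E13 replicate 3 gave the highest E13 value of 14 of 21 H2A and 13 of 16 H4 probes, and E16 replicate 5 the lowest E16 value of 15 of 21 H2A probes. On E13 replicate 3 the summed intensity of mitosis genes (11844) and DNA synthesis genes (19242) was also the highest of all arrays. So were those of histone variants (59512) and basal progenitor markers (37571). E16 replicate 4 had the lowest mitosis sum (3117) but the highest E16 mean over all histone probes (-0.58). E16 replicate 5 had the lowest histone mean (-0.98), with sums of 4059 for mitosis and 11160 for DNA synthesis, neither the lowest. The part of these lists in the histone values was not tested.

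**Figure D4:**
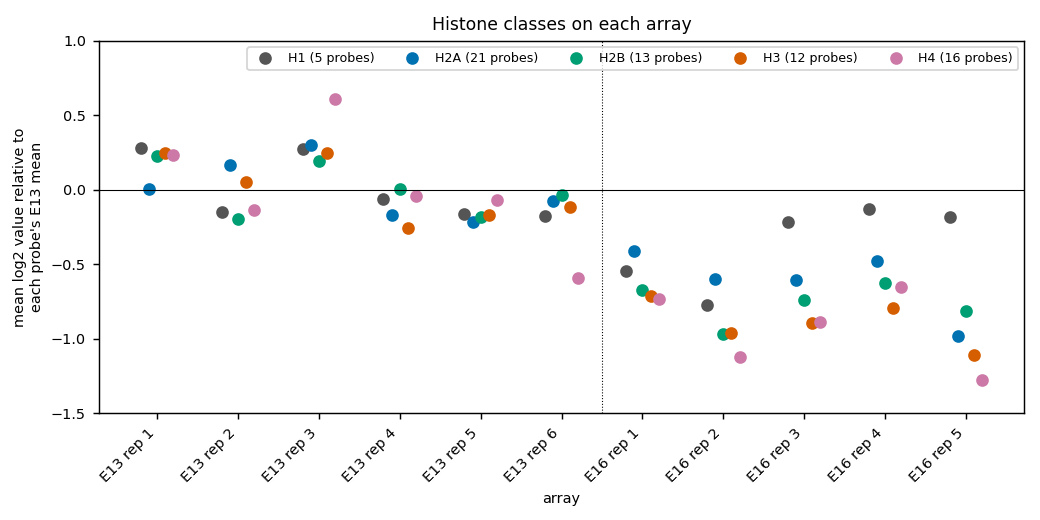
Mean log2 value of the tested probes of each histone class, relative to the E13 mean of each probe (vertical axis), on each of the 11 arrays. Points of H2A, H2B, H3 and H4 at E16 all lie at or below -0.41; H1 at E16 ranges from -0.77 to -0.13.

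Most members lie in the large cluster on chromosome 13 (47 genes), with 9 genes in the cluster on chromosome 3. On chromosome 13, 45 of 53 tested probes were lower and the median difference was -0.78. On chromosome 3, 7 of 12 were lower with a median of -0.47. The 5 chromosome 3 probes that did not pass were 2 of H2ac18 and single probes of H2bc21, H3c13 and H3c14. The clusters differ in class make-up: 7 of the 12 tested chromosome 3 probes were H2A, and all tested H4 probes lie on chromosome 13. Within H2A, the median was -0.59 on chromosome 13 and -0.51 on chromosome 3. Within H3, 8 of 9 chromosome 13 probes were lower. No test was made between clusters.

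Histone variants, which replace the canonical forms at particular sites, changed in part. Of 9 measured variant genes other than H1f10, 5 were lower and 0 higher (0 at an unadjusted p under 0.05, limma), with a median of -0.40. In a fit of all 10568 genes with 1 probe a gene, 14.15% were lower and 12.99% were higher (limma, adjusted p under 0.05). These shares are the background for the gene lists here and below. The calls of the lists come from the fit of all 20599 probes, adjusted separately, where 11.9% were lower and 10.7% higher. Cenpa, the H3 variant of centromeres, averaged 12.62 ± 0.154 over the E13 arrays (SD, n = 6) against 11.38 ± 0.101 over the E16 arrays (SD, n = 5), a difference of -1.24 (adjusted p = 2.31e-07, limma). H2ax, which is phosphorylated at DNA breaks, fell by 1.08 (adjusted p = 4.35e-05, limma), with E13 arrays between 11.27 and 11.91 and E16 arrays between 10.12 and 10.74. Macroh2a2 (-0.59), a macroH2A gene, and H2az2 (-0.47) and H2az1 (-0.40), which encode the H2A.Z found around transcription starts, were also lower. The replacement H3.3 genes H3f3a and H3f3b differed by -0.10 (adjusted p = 0.483) and 0.08 (adjusted p = 0.395) and did not pass in limma. H1f0 had no named probe and was not analysed here.

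Factors that make and process histone mRNA were mostly not called. Of 16 measured genes of this list, 4 were lower and 0 higher (0 at an unadjusted p under 0.05, limma), and the median was -0.12. The 4 were Ccne2 (-0.74), Cdk2 (-0.63), Ccne1 (-0.58) and the cap-binding protein gene Ncbp1 (-0.36). Ccne2, Cdk2 and Ccne1 are the cyclins and kinase that activate the histone gene coactivator Npat at the start of S phase. Ccne2 was detected on 6 E13 arrays and 1 of 5 E16 arrays, so the size of its decrease is uncertain. Ccne1 (adjusted p = 0.0282, limma) lost its call when E13 replicate 2, 3 or 6 or E16 replicate 1, 3 or 5 was dropped, with adjusted p between 0.0516 and 0.0742. Npat itself differed by 0.08 (adjusted p = 0.806), and the U7 particle proteins Lsm10 and Lsm11 by -0.18 (adjusted p = 0.165) and 0.02 (adjusted p = 0.946), all in limma. The probes of Slbp and Casp8ap2, a further processing factor, were detected on 0 of 11 arrays.

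Among histone chaperones, which carry newly made histones to DNA, 5 of 22 measured genes were lower and 0 higher (4 higher at an unadjusted p under 0.05, limma), with a median of -0.12. Over all genes with 1 probe a gene, 14.15% were lower and 12.99% higher, and no test was made of the list against them. Asf1b, the H3-H4 chaperone of proliferating cells, fell by 0.88 (adjusted p = 0.00183, limma). Hat1 (-0.62), which acetylates new H4, Chaf1a (-0.50), the large subunit of a chromatin assembly factor, and the H2A-H2B chaperone gene Nap1l1 (-0.48) were lower too. DNA synthesis genes were lower for 15 of 23, with 0 higher (0 at an unadjusted p under 0.05, limma) and a median of -0.54. Rrm2 (-1.09), a subunit of ribonucleotide reductase, Cdc45 (-0.86) and Mcm2 (-0.81) of the replicative helicase and the flap endonuclease gene Fen1 (-0.84) had the largest decreases. Mitosis genes were lower for 10 of 11, with 0 higher (0 at an unadjusted p under 0.05, limma) and a median of -1.31. They included Ube2c (-1.40), Nusap1 (-1.39), Cdc20 (-1.39) and Birc5 (-1.37). Only 1 of 5 E16 arrays detected Ube2c, so the size of its decrease is uncertain.

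**Figure D5:**
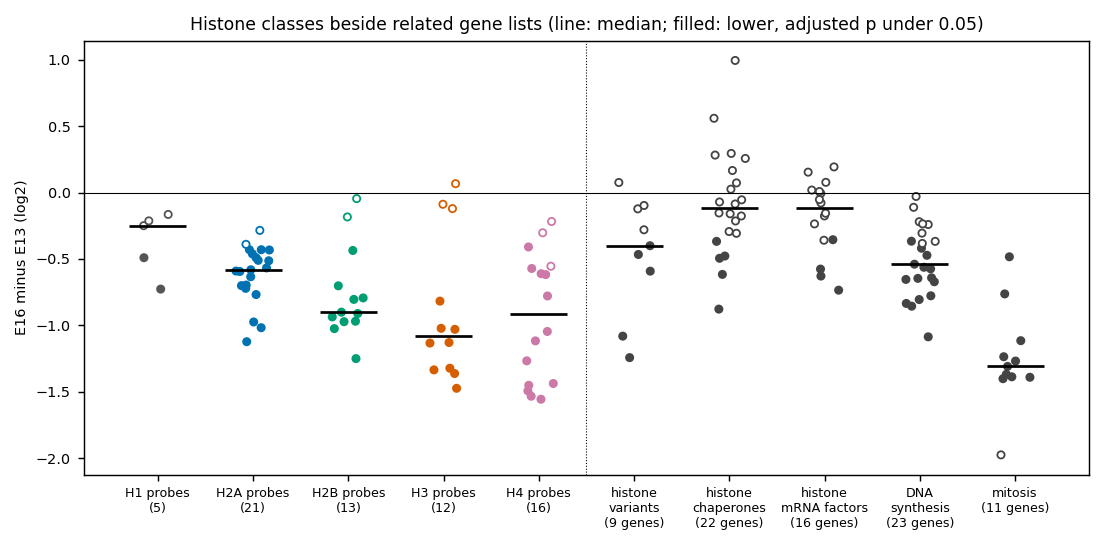
Difference between the stages (E16 minus E13, log2, vertical axis) of the tested probes of each histone class, left, and of the measured genes of 5 related lists, right; filled points were lower with adjusted p under 0.05 and the line is the median. Medians run from -0.25 (H1) to -1.08 (H3) among the classes and from -0.12 to -1.31 among the lists.

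The arrays were alike in depth, with between 43.6% and 45.5% of probes detected. Basal progenitor markers were present, with 7 of 9 measured genes lower and 1 higher at E16, and Btg2 undetected. Summed linear intensities of other lists moved with the stage: Cajal-Retzius markers (8 of 8 with a probe, Nhlh2 undetected) ranged from 12074 to 18418 at E13 and from 2834 to 5326 at E16, and red cell markers (9 of 12 with a probe, Hbb-bh1 and Hba-x undetected) from 303 to 2530 and from 1858 to 5872. All 6 measured Cajal-Retzius markers were lower and all 3 measured red cell markers higher. Neuron markers (10 of 10, Snap25 undetected) ranged from 50623 to 61127 at E13 and from 48792 to 54474 at E16, interneuron markers (8 of 8, Dlx5 undetected) from 358 to 715 and from 399 to 573, and radial glia markers (8 of 8) from 2476 to 3883 and from 2198 to 2608. Among these, 3 of 9 measured neuron markers were lower and 0 higher (1 at an unadjusted p under 0.05, limma), and 2 of 6 interneuron markers were lower and 1 higher. Of 8 radial glia markers 1 was lower, Vim (-1.56), and 2 were higher, Slc1a3 (2.22, adjusted p = 6.64e-08, limma) and Fabp7 (0.45). The part of these cell type markers in the histone differences was not tested. Endothelial markers (6 of 6) had 0 measured members, with Pecam1, Cdh5, Cldn5 and Flt1 undetected, and microglial markers (5 of 6) had 2, with Cx3cr1 and Tyrobp undetected.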

How the data were processed

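Per the labels' protocols, total RNA was labelled as biotinylated cRNA with an Illumina TotalPrep kit. The authors deposited raw probe intensities on a linear scale, from which a background had been subtracted (26.9% to 29.2% of an array's values were below 0), with a detection p-value for each probe, per the file headers; no source used here names the scanner software. The authors also deposited a table of log2 values, identical in distribution between arrays, for 16554 probes.

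Here, intensities were background corrected with normexp, quantile normalised and log2 transformed with 16 added (neqc, limma 3.58.1, R 4.3.3). Probes with detection p under 0.05 on at least 5 arrays (20599) were fitted one by one with lmFit and eBayes with a mean-variance trend, and p-values were adjusted over all of them (Benjamini-Hochberg, threshold 0.05, two-sided). A difference is the E16 mean less the E13 mean, in log2 units. Other lists used 1 probe a gene, the brightest. Where 0 arrays of a stage detected a probe, its level there is a bound, the mean of, per array, the lowest detected signal or its own value if higher. The number of arrays limits the precision. Nothing shows which embryos share a litter, so p-values treat them as independent. Symbols came from the platform's annotation table (34885 probes with 1 symbol). All member probes that passed detection are named; of other lists, up to 4 past-threshold genes with the largest differences, and Slbp, Npat, Lsm10, Lsm11, Casp8ap2, H2ax, H2az1, H3f3a, H3f3b, H1f0 and H1f10 whatever their result. Members and lists were chosen with earlier results of these data known. The fit was tested on simulated data. Alternatives changed the normalisation, background correction, value table, filter, probe choice, weights, variance trend and replicates.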

Additional observations from a re-analysis of the deposited data

Results flagged for a closer look

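Of 198 sets of values of a probe or class within a stage, 7 had 1 array standing far from the others by Dixon's criterion, where chance flags about 1 in 20. E16 replicate 5 was the low array for 4 H2A probes: H2ac7 ILMN_1226839 at 13.76 (next 14.15), H2ac12 ILMN_2730329 at 12.24 (next 12.68), H2ac20 ILMN_1218380 at 13.72 (next 14.18) and H2ac22 at 12.25 (next 12.77). E16 replicate 2 was low for H2bc7, at 7.97 (next 8.46). Outside the histones, Birc5 was high on E13 replicate 3 at 10.64 (next 10.33) and Asf1b on E16 replicate 3 at 6.37 (next 5.85). All 5 histone probes remained lower at E16 without the array named.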

How the results depend on the processing

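Across 20 alternatives, between 37 (1 probe per gene, 46 genes) and 55 histone probes were lower and 0 higher, as against 54 of 67. Leaving out 1 array at a time gave between 50 and 55 lower. The counts without H1f10 (52 of 65) and over probes detected on all arrays (45 of 55) were added after the data were seen. In the authors' deposited table, which lacks 5 H2A probes detected on all arrays, 40 of 50 were lower. Of the 54 lower probes, 47 kept their call in every alternative that tested them; of 1285 comparisons 25 lost the call, 3 gained it and 4 changed sign. The H3 median (-1.08) was -1.33 without further background correction and -0.53 without a detection filter, which adds 6 undetected or rarely detected H3 probes. H4c2 lost its call without further background correction (adjusted p = 0.129).

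Values near 0 that changed sign were H3c13 (-0.029 with median centring), H2bc21 ILMN_1231066 (0.013 without E13 replicate 6 and 0.032 without E16 replicate 4), Npat (between -0.036 and 0.22 when 1 array was left out) and Lsm11 (-0.058 with median centring, -0.11 with array weights, and between -0.046 and 0.15 when 1 array was left out).

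Replicate numbers do not pair embryos of different stages: deviations of same-numbered arrays correlated between -0.14 and 0.13. With the replicate number as a block, 52 probes were lower and 0 higher, H2bc21 ILMN_1231066 stood at 0.013, and H4c8 ILMN_2664129 (adjusted p = 0.0713) and H4c12 ILMN_2525570 (0.0668) lost their calls. E16 replicate 5 was the 1 array that correlated best with its own number.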
